A study of Homo sapiens with 3 samples.

Results

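The 7 linker histone H1 genes that are expressed outside the germline (HIST1H1A, HIST1H1B, HIST1H1C, HIST1H1D, HIST1H1E, H1F0 and H1FX) were followed across 3 single-cell RNA libraries of a head and neck cancer cell line. They are 7 of 58735 measured genes, taken by symbol, and all 7 had a mean of at least 10 CPM (counts per 1e6 UMIs, or unique molecules, of a library), as did 8143 genes in all. The group was chosen by measured values: the differences of its members between the FaDu library and the resistant libraries were known, so those differences are given as a description. FaDu is an established line of hypopharyngeal squamous carcinoma. A subline was made resistant with TPF, which per the labels is paclitaxel, cisplatin and 5-fluorouracil. FaDu cells given cinobufotalin, a steroid of toad venom, form the FaDu library, resistant cells given TPF the TPF library, and resistant cells given TPF and cinobufotalin the combination library. Every group received a drug, untreated cells were not analysed here, and doses, times and the number of clones were not stated. With 1 library per group nothing was tested between groups, and the cell line and the treatment cannot be told apart when the FaDu library is compared. The 95% intervals reflect the counting of UMIs alone, or of cells for shares of cells. They are Clopper-Pearson intervals for ratios and shares of cells, and exact Poisson intervals for CPM.

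Linker histones bind the DNA where it enters and leaves the nucleosome and help to fold chromatin. The HIST1H1 genes belong to the replication-dependent histone genes, which are transcribed mainly in S phase. Their mRNAs normally end in a stem-loop and carry no poly(A) tail. H1F0 and H1FX lie outside the histone clusters, are transcribed through the cell cycle and make polyadenylated mRNAs, and H1F0 is known to accumulate in cells that stop dividing or differentiate. The libraries were primed on poly(A), so for the HIST1H1 genes they counted only RNA that such a primer could catch, and how much of their mRNA that was is not known here.

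The ends of the gene models are shown because they differ between the cluster genes and H1F0 and H1FX, and the promoters because the cluster genes share motifs in them. In GENCODE 29 (GRCh38) all 7 genes have 1 exon. HIST1H1A (chr6:26017085-26017732), HIST1H1B (chr6:27866849-27867529), HIST1H1C (chr6:26055787-26056428) and HIST1H1D (chr6:26234268-26234933) lie on the minus strand, and their models end at the stop codon, with no 3′ UTR. HIST1H1E (chr6:26156354-26157107, plus strand) ends 57 bases after its stop codon. H1F0 (chr22:37805093-37807436, plus strand) and H1FX (chr3:129314771-129316277, minus strand) end 1307 and 490 bases after it. The last 30 bases of 5 models follow, read 5′ to 3′, with the stop codon in capitals for HIST1H1C and HIST1H1D, the start of the stem-loop for HIST1H1E and the AATAAA signal for H1F0 and H1FX.
HIST1H1C: cctaagaaggcggcgcccaagaagaaaTAG
HIST1H1D: gcaaagaaggcagctccgaagaaaaagTGA
HIST1H1E: gcccaacacaacccaaaGGCTCTTTTcaga
H1F0: ttaaAATAAAttggaaaagggagaaactga
H1FX: ttgggcacAATAAAgcgtttaaacctttca
Of the models' 60-base windows, none of those of H1F0 or of the 5 cluster genes occurred in another gene. H1FX shared 16.0% of its windows with its antisense neighbour H1FX-AS1, which had 0.784, 0.666 and 0.683 CPM in the FaDu, TPF and combination libraries, and how the counting treated strand was not stated.

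Promoters of 6 of the 7 genes were found in RefSeq (GRCh38.p14). The 200 bases before the start of 4 genes are printed on the strand of the gene, HIST1H1C (chr6:26056471-26056670), HIST1H1D (chr6:26234988-26235187), HIST1H1E (chr6:26156129-26156328) and H1FX (chr3:129316287-129316486). Capitals mark AAACACA, known as the H1 box, CCAAT, and TATAAA or TATATA.
HIST1H1C: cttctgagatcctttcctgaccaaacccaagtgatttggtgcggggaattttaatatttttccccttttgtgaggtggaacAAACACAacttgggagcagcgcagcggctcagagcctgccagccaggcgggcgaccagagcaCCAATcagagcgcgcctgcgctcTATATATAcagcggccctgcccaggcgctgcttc
HIST1H1D: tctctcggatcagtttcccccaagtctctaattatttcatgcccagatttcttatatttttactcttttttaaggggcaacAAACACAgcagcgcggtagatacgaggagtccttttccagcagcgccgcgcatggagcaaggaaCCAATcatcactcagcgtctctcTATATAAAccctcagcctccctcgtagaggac
HIST1H1E: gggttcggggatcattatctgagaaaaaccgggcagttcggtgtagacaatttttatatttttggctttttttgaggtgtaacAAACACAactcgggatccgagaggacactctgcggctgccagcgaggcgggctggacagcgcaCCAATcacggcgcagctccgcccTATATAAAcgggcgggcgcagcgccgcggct
H1FX: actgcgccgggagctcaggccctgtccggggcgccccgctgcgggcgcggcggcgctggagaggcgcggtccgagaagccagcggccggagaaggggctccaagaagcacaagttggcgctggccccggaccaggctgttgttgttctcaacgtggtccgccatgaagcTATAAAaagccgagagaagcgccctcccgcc
AAACACA and CCAAT were searched on both strands, and TATAAA or TATATA on the strand of the gene, where the last pair may overlap. AAACACA and CCAAT were each in 5 of the 6 promoters, the exception being H1FX, and a TATA motif was in 6 of 6. Among 27305 RefSeq promoters of the same length, 3.86% held AAACACA, 28.9% CCAAT and 8.16% a TATA motif. In HIST1H1B, HIST1H1C, HIST1H1D and HIST1H1E, AAACACA began 117 to 119 bases before the start. In HIST1H1A it was on the other strand and 183 to 177 bases before the start. HIST1H1C thus carried the same motifs at nearly the same places as HIST1H1D and HIST1H1E. The levels of those genes followed another pattern, and the part of the motifs in the levels was not tested.

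The 3 libraries held 4862 to 7525 cells after filtering, 134802289 to 165847771 UMIs and a median of 17867 to 27920.5 UMIs per cell, and shared 12 to 19 cell barcodes by pair. All 11 squamous epithelial markers had a mean of at least 5 CPM, against 0 of 8 fibroblast, 0 of 9 immune and 0 of 5 endothelial markers and 1 of 4 erythroid markers (HBA1). The median share of MALAT1, a nuclear noncoding RNA, among the UMIs of single cells was 0.0892% in FaDu and 0.795% and 0.731% in the TPF and combination libraries. The germline linker histone genes HIST1H1T, H1FOO, H1FNT and HILS1 gave at most 13 UMIs in a library, and H1FNT gave 0 in all 3. Levels are CPM without scaling to gene length, so they are compared between libraries and not between genes.

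HIST1H1A, HIST1H1B, HIST1H1D and HIST1H1E were several-fold higher in both resistant libraries than in the FaDu library. HIST1H1D, which encodes the variant H1.3, was at 13.1 CPM in the FaDu library, 113 in the TPF library and 143 in the combination library. The TPF over FaDu ratio was 3.11 on the log2 scale (3.05 to 3.18) and the combination over FaDu ratio 3.45 (3.39 to 3.52). No gene among the 8143 had a larger combination over FaDu ratio. HIST1H1A stood at 34.0, 130 and 144 CPM in the same order, with log2 ratios over the FaDu library of 1.94 (1.90 to 1.98) and 2.09 (2.04 to 2.13). HIST1H1B gave 14.9, 78.4 and 72.3 CPM and ratios of 2.40 (2.34 to 2.46) and 2.28 (2.22 to 2.35). HIST1H1E gave 8.85, 46.1 and 54.2 CPM and ratios of 2.38 (2.30 to 2.46) and 2.61 (2.53 to 2.70). All 4 were lowest in the FaDu library, and for each of them the resistant libraries were within 1.27-fold of each other.

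HIST1H1C did not share that pattern, although it sits in the same cluster. Its level was 46.5 CPM in the FaDu library, 46.2 in the TPF library and 42.4 in the combination library. The log2 ratios over the FaDu library were -0.0095 (-0.058 to 0.039) and -0.14 (-0.19 to -0.086), both below the median gene, at 0.37 and 0.31.

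The members outside the clusters were lower in the resistant libraries. H1F0 was at 262 CPM in the FaDu library, 197 in the TPF library and 144 in the combination library, with log2 ratios over the FaDu library of -0.41 (-0.43 to -0.39) and -0.86 (-0.88 to -0.84). H1FX was at 259, 191 and 168 CPM, with ratios of -0.44 (-0.46 to -0.41) and -0.62 (-0.65 to -0.60). Both genes were highest in the FaDu library and lowest in the combination library.

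**Figure D1:**
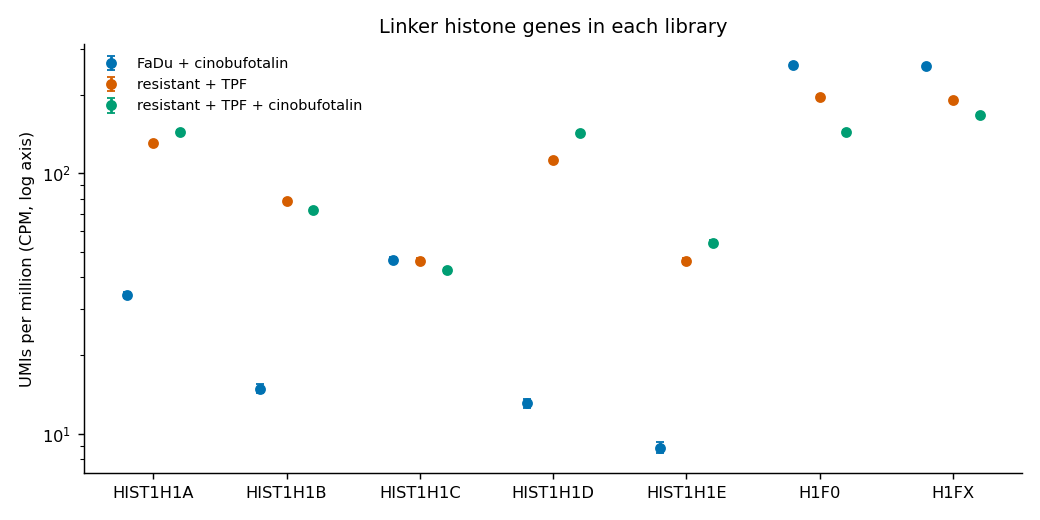
CPM (log axis) of the 7 linker histone genes in each of the 3 libraries, with 95% counting intervals as bars. HIST1H1A, HIST1H1B, HIST1H1D and HIST1H1E are lowest in the FaDu library, HIST1H1C lies between 42.4 and 46.5 CPM, and H1F0 and H1FX are highest in the FaDu library.

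Counted by a 2-fold limit, 4 of 7 members were higher in the TPF library than in the FaDu library, where 13.2% of all 8143 genes were, and 0 were lower, where 0.344% of all genes were. In the combination library 4 of 7 were higher than in the FaDu library, beside 13.3% of all genes, and 0 were lower, beside 0.761%. These contrasts chose the group, so the counts are a description. HIST1H1E, at 8.85 CPM in the FaDu library, reached a mean of 10 CPM only through the resistant libraries. TMM scaling, an alternative, moved the median gene from 0.37 to -0.20 and from 0.31 to -0.22. With it the same 4 genes stayed over 2-fold higher. H1FX (TPF over FaDu) and both H1F0 and H1FX (combination over FaDu) passed 2-fold lower. Of 8098 genes under TMM scaling, 146 were higher and 377 lower in TPF over FaDu. In combination over FaDu 187 were higher and 508 lower.

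The sum of the 7 genes differed less than its makeup. It was 638 CPM in the FaDu library, 802 in the TPF library and 768 in the combination library, or 17.3, 22.3 and 13.8 UMIs per cell. The 5 cluster genes made up 18.4% of these UMIs in the FaDu library, 51.6% in the TPF library and 59.4% in the combination library. Set against core histone mRNA, there were 8.82, 24.6 and 27.3 UMIs of cluster linker genes per 100 UMIs of the core histone genes of the clusters, which themselves summed to 1329, 1683 and 1668 CPM. The core gene HIST1H4C alone gave 824, 988 and 1002 CPM of these sums, so the ratio rests largely on that gene.

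Adding cinobufotalin to TPF in resistant cells moved no member by 2-fold. Of the 7 genes 0 were at least 2-fold higher in the combination library than in the TPF library and 0 lower, beside 0.0123% of all genes in each direction, and all 7 intervals lay inside 2-fold. HIST1H1D had the highest ratio, 0.34 on the log2 scale (0.31 to 0.37), followed by HIST1H1E at 0.23 (0.18 to 0.28) and HIST1H1A at 0.15 (0.12 to 0.18). HIST1H1B at -0.12, HIST1H1C at -0.13 and H1FX at -0.19 were slightly lower. H1F0 had the lowest ratio, -0.45 (-0.48 to -0.42), and 98.8% of all genes had a larger one. The median gene was at -0.058.

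**Figure D2:**
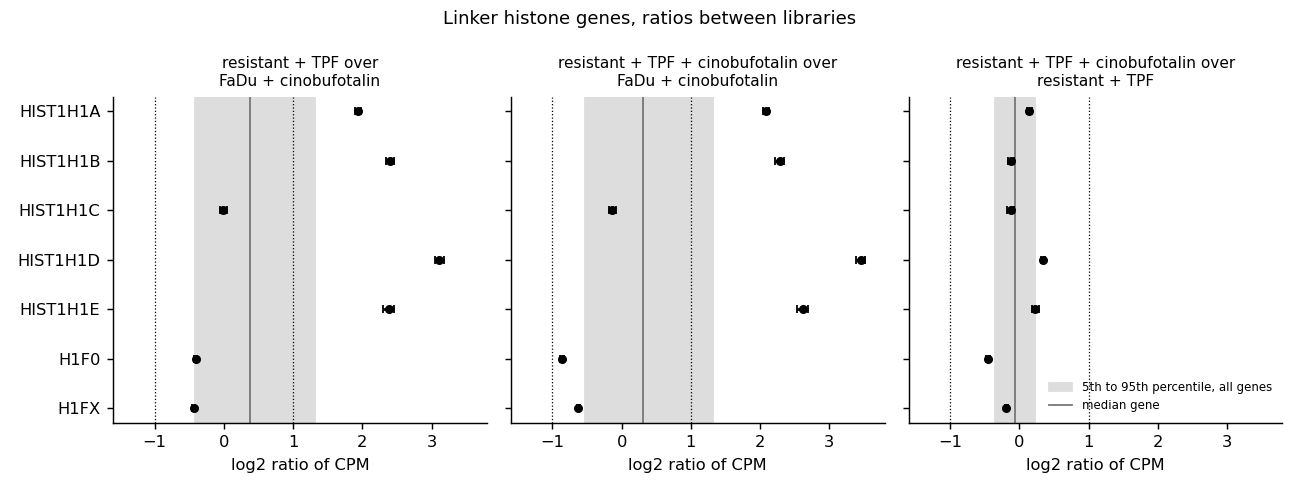
Log2 ratios of CPM between libraries for the 7 genes (points, 95% counting intervals as bars), with the median of 8143 genes as a line, their 5th to 95th percentile shaded and 2-fold marked by dotted lines. HIST1H1D reaches 3.11 and 3.45 over the FaDu library, and in the right panel every member lies between -0.45 and 0.34.

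The other histone genes gave a mixed picture. Of 65 core histone genes of the clusters 15 were measured at a mean of 10 CPM over the 3 libraries. Of these, 7 were at least 2-fold higher in the TPF library than in the FaDu library. The median log2 ratio of the 15 was 0.92 against 0.37 for all genes. All of the 7 but HIST1H2AJ (15.5 CPM) were under 10 CPM in the FaDu library. They were measured because the resistant libraries were high, so the count is a description. In the combination over FaDu comparison 7 were higher and 1 lower, with a median of 0.76. HIST1H2AM, a core H2A gene, was at 4.62, 43.3 and 41.4 CPM in the FaDu, TPF and combination libraries, a TPF over FaDu ratio of 3.23. HIST3H2A went the other way, at 208, 124 and 100 CPM, and it was the gene lower in the combination library. None of 9 replication-independent core histone variants was 2-fold apart in a pair, and H2AFJ had 474, 324 and 353 CPM.

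Genes that act on histone genes and their mRNA were counted the same way. The share of all genes at least 2-fold higher in the TPF library than in the FaDu library was 13.2%, as above. Of 11 measured factors of histone gene transcription 5 were, with a median log2 ratio of 0.86. Of 41 measured genes of the S phase list, which shares CASP8AP2 and CCNE2 with these factors, 21 were, with a median of 1.01. CASP8AP2, which is needed for histone gene expression in S phase, had 11.4, 49.8 and 43.3 CPM, and CCNE2, a cyclin of S phase entry, 13.2, 46.9 and 48.8 CPM. Genes under 10 CPM in the FaDu library, such as NPAT (5.69 CPM) and E2F8 (6.55 CPM), entered these counts through the resistant libraries. Of 13 factors of histone mRNA processing and decay 1 was higher, a share near that of all genes, TUT4 (listed under its older symbol ZCCHC11), at 21.0, 54.7 and 57.3 CPM. SLBP, which binds the histone stem-loop, had 119, 167 and 143 CPM. Of 25 partners and chaperones of linker histones 0 passed 2-fold in either direction, and the median ratio was 0.21. NAP1L4, a histone chaperone, came closest, with 43.3, 86.2 and 84.2 CPM, while HMGA1, which competes with linker histones for DNA, had 886, 561 and 466 CPM.

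The share of cells with a molecule of each gene was compared at equal depth. Cells were thinned to 5000 UMIs each, which left out 144, 205 and 571 shallower cells in the FaDu, TPF and combination libraries. HIST1H1D was then seen in 6.42% (5.81 to 7.07) of FaDu library cells, 33.7% (32.3 to 35.1) of TPF library cells and 37.5% (36.3 to 38.6) of combination library cells. Without thinning the shares were 24.7%, 66.1% and 59.97%. HIST1H1C was seen in 16.0%, 17.7% and 17.3% of thinned cells, lowest in the FaDu library, while its level there was 46.5 CPM against 46.2 and 42.4. H1F0 was seen in 60.7%, 54.3% and 45.5% of them and H1FX in 63.3%, 53.7% and 49.5%. None of the 5 cluster genes was seen in 62.0% of FaDu library cells, against 31.8% and 31.5% in the TPF and combination libraries. Free RNA can add UMIs to cells that do not express a gene, and these libraries hold no cell type that should lack linker histones. Of the germline genes, HIST1H1T had the highest share in a library, 0.0859% in the TPF library. H1FNT had a UMI in 0 of 5979 FaDu library cells. A limit of 3 cells on a count of 0 allows up to 0.0502% of cells with a UMI at this depth, which sets no limit on cells that express the gene.

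Within a library, HIST1H1A, HIST1H1B and HIST1H1D were higher in cells called S phase than in cells called G1. Phases were called from S and G2/M gene lists that hold none of the 7 genes, and 61.8% to 71.5% of cells were called G2/M, so the call says which list scored higher rather than where a cell stood. S calls were 14.1% of cells in the FaDu library, 25.7% in the TPF library and 25.5% in the combination library. Cells of the 3 libraries were scored together, and many S list genes were higher in the resistant libraries, as given above. The S list summed to 1036, 839 and 896 CPM in G1 calls of the FaDu, TPF and combination libraries. In S calls it summed to 2644, 4097 and 4071 CPM. The part of this calling in the ratios between phases and libraries was not tested. HIST1H1B had 4.75 CPM in G1 and 19.6 in S in the FaDu library, 6.12 and 93.4 in the TPF library, and 9.24 and 90.6 in the combination library. Its S over G1 log2 ratio was thus 2.04 (1.72 to 2.38), 3.93 (3.62 to 4.26) and 3.29 (3.01 to 3.59). HIST1H1D gave 1.80, 3.22 and 3.27, HIST1H1A 1.73, 2.77 and 2.67 and HIST1H1E 1.35, 2.38 and 2.35 in the same order. HIST1H1E had too few UMIs in the FaDu library to be counted, with a mean under 10 CPM.

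By the 2-fold limit, 3 of 6 measured members were higher in S than in G1 in the FaDu library, beside 2.05% of all genes, 4 of 7 in the TPF library beside 5.18% and 4 of 7 in the combination library beside 5.04%. In G2/M calls over G1 calls, 2 of 5 were higher in the FaDu library beside 1.58%, 4 of 7 in the TPF library beside 4.37% and 4 of 7 in the combination library beside 4.04%. HIST1H1C, H1F0 and H1FX were never among them. The S over G1 ratio of H1FX was 0.36, 0.42 and 0.68, that of H1F0 0.046, -0.27 and -0.098, and that of HIST1H1C -0.46, -0.12 and 0.16.

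A finer order gave the same members. Cells were placed in 8 sectors of 45 degrees by the angle of their S and G2/M scores, each score centred on its median over the libraries. HIST1H1A, HIST1H1B, HIST1H1D and HIST1H1E were highest in sector 1, where both scores were above their median and the S score further so, in every library. They were lowest in sector 6, where both scores were below and the G2/M score further so, apart from HIST1H1E in the combination library, which was lowest in sector 5. HIST1H1B ran from 10.3 to 27.6 CPM in the FaDu library, 18.6 to 118 in the TPF library and 23.3 to 111 in the combination library. The highest over lowest ratio of these 4 genes was 1.92 to 2.69 in the FaDu library, 3.35 to 6.31 in the TPF library and 3.38 to 4.88 in the combination library. For HIST1H1C, H1F0 and H1FX it was 1.39 to 1.88 in every library, and the core histone genes together gave 1.78, 1.79 and 1.72. Most of the core histone UMIs of each library were of HIST1H4C, as given above. Gene by gene, 1 of 6 measured core genes was at least 2-fold higher in S than in G1 calls in the FaDu library. It was 4 of 19 in the TPF library and 4 of 18 in the combination library. At least 2-fold lower were 1, 7 and 6, beside 0.344%, 2.90% and 2.20% of all genes. The median core gene had an S over G1 log2 ratio of -0.56, -0.47 and -0.33.

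**Figure D3:**
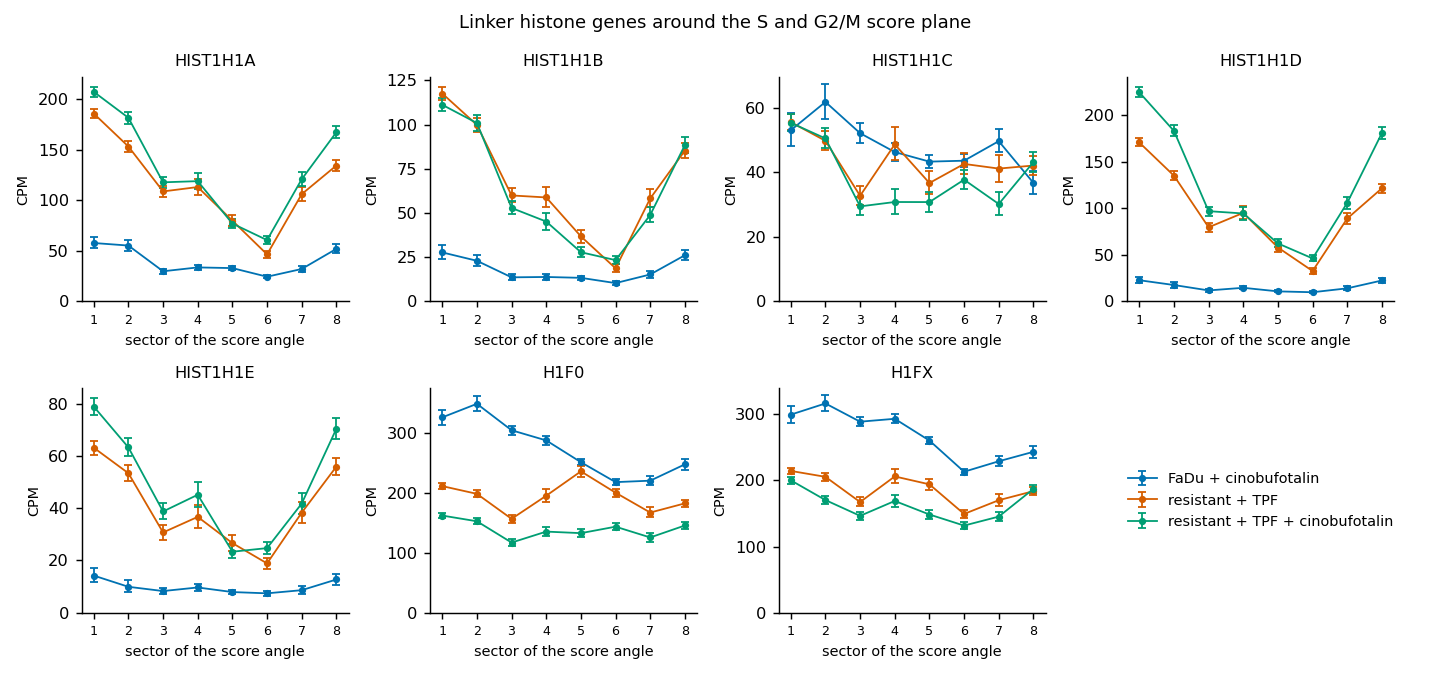
CPM of each gene in 8 sectors of the angle between the S and G2/M scores, by library, with 95% counting intervals as bars; sector 1 starts where the S score is high and the G2/M score is at its median. HIST1H1B reaches 118 and 111 CPM in sector 1 of the resistant libraries and 27.6 in the FaDu library.

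The differences from the FaDu library were smaller in cells called G1, a call that need not mean the same state in each library. In those cells the TPF over FaDu log2 ratio was 1.57 (1.22 to 1.93) for HIST1H1D, 1.38 (0.99 to 1.78) for HIST1H1E, 0.89 (0.63 to 1.14) for HIST1H1A and 0.37 (-0.072 to 0.80) for HIST1H1B. In cells called S the same ratios were 2.99, 2.41, 1.93 and 2.25. Of the 4 genes 1 stayed at least 2-fold higher by the count in G1 in the TPF library (HIST1H1D) and 2 in the combination library (HIST1H1A and HIST1H1D), where HIST1H1B and HIST1H1E were below a mean of 10 CPM. Among all 8315 genes counted in G1 calls, 1154 (TPF) and 1239 (combination) were at least 2-fold higher than in the FaDu library. H1F0 was higher in the TPF than in the FaDu library in G1 calls, at 0.25 (0.18 to 0.31), and lower in G2/M calls, at -0.56 (-0.59 to -0.53). Median MALAT1 in G1 calls was 0.174% in the FaDu library and 2.07% in the TPF library. In G1 calls at 0.5% to 1% MALAT1, H1F0 was at 222 CPM in the TPF library against 236 in the FaDu library. It was at 280.5 against 250.3 at 1% to 2%, and 216 against 179 above 2%. At 0.05% to 0.2% and 0.2% to 0.5%, with 10 and 23 TPF library cells, it was 144 against 194 and 195 against 198.

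MALAT1 share differed between the libraries, and the members' levels differed along it. Only H1F0 in the combination library rose in every bin, and HIST1H1C in the resistant libraries rose up to 1% to 2% MALAT1. Among cells with at least 10000 UMIs and 2% to 8% mitochondrial UMIs, 30.0% in the FaDu library, 1.96% in the TPF library and 4.38% in the combination library had under 0.05% MALAT1. HIST1H1D went from 33.4 CPM in these cells to 192 CPM at 0.5% to 1% MALAT1 in the combination library, from 55.8 to 134 in the TPF library and from 10.6 to 20.6 in the FaDu library. HIST1H1C went from 9.74 to 48.9, from 18.5 to 48.9 and from 43.6 to 46.7 CPM. H1FX went from 77.0 to 189, from 94.9 to 205 and from 271 to 277 CPM. Between these bins all 7 members were higher in the upper one in both resistant libraries, while in the FaDu library HIST1H1C and H1FX were near level. Above 2% MALAT1, HIST1H1A, HIST1H1B, HIST1H1D and HIST1H1E were lower than at 0.5% to 1% in both resistant libraries. HIST1H1A was then at 83.7 CPM in the TPF library, against 83.5 under 0.05% MALAT1, and at 79.1 against 71.4 in the combination library. HIST1H1D was at 75.9 and 82.6 CPM there. H1F0 in the combination library rose from bin to bin, from 81.8 CPM under 0.05% MALAT1 to 153 at 0.5% to 1% and 196 above 2%. In the TPF library H1F0 was at 225 CPM at 1% to 2% and 212 above 2%. HIST1H1C was near level between those bins, at 57.2 and 57.2 CPM in the TPF library and 57.1 and 54.1 in the combination library. G1 calls made up 48.3%, 43.7% and 44.0% of cells above 2% MALAT1 in the FaDu, TPF and combination libraries.

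At 0.5% to 1% over under 0.05% MALAT1, 1 of 6 measured members was at least 2-fold higher in the FaDu library beside 4.09% of all genes, 5 of 7 in the TPF library beside 7.03%, and 6 of 7 in the combination library beside 16.3%. The low bin held 1158, 75 and 233 cells. G1 calls made up 9.67%, 2.67% and 5.15% of the low bin and 16.5%, 4.88% and 4.19% of the upper one.

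Cells matched on MALAT1 differed between libraries to an extent that varied with the bin. At 0.5% to 1% MALAT1 the combination over FaDu log2 ratio was 3.22 (3.03 to 3.41) for HIST1H1D, 2.65 (2.40 to 2.91) for HIST1H1E, 1.92 (1.79 to 2.04) for HIST1H1A and 1.92 (1.74 to 2.09) for HIST1H1B. HIST1H1C was at 0.066 (-0.071 to 0.21) and H1F0 at -1.08 (-1.14 to -1.02). Under 0.05% MALAT1, HIST1H1B was not higher, at -0.25 (-0.76 to 0.22) on 41 and 358 UMIs, and HIST1H1C was lower, at -2.16 (-2.64 to -1.72). Above 2% MALAT1 the combination over FaDu ratio was 2.24 (1.79 to 2.73) for HIST1H1D, 1.504 (0.95 to 2.10) for HIST1H1E and 1.24 (0.82 to 1.68) for HIST1H1B. HIST1H1A was at 0.96 (0.65 to 1.28), under 2-fold. HIST1H1A, HIST1H1D and HIST1H1E were above 0 in all 6 MALAT1 bins in both comparisons with the FaDu library. Beyond these matched values, the part of MALAT1 share and phase in the differences between libraries was not tested.

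**Figure D4:**
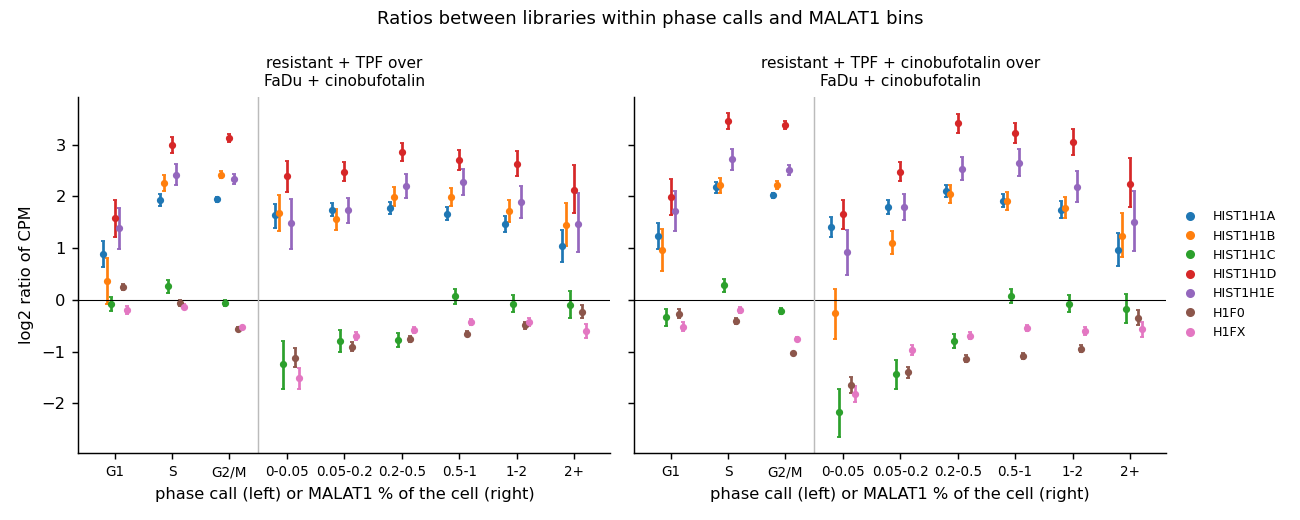
Log2 ratios of CPM over the FaDu library within each phase call (left of the line) and each MALAT1 bin (right), for the TPF library and the combination library, with 95% counting intervals as bars. HIST1H1D stays highest in every group, and HIST1H1B is at -0.25 in the lowest MALAT1 bin of the combination library.

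**Figure D5:**
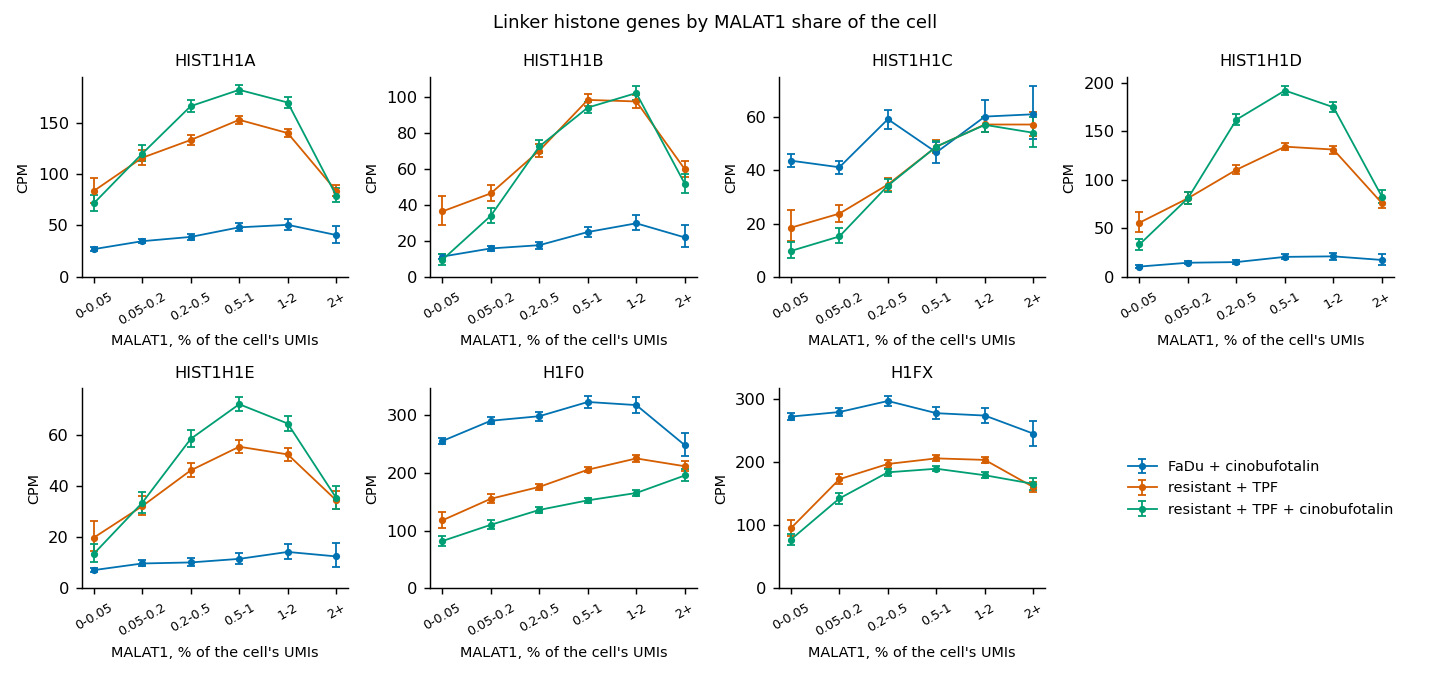
CPM of each gene (MALAT1 left out of the totals) by the MALAT1 share of the cell, in cells with at least 10000 UMIs and 2% to 8% mitochondrial UMIs, with 95% counting intervals as bars. HIST1H1D peaks at 192 CPM in the combination library at 0.5% to 1% MALAT1 and stays at or below 21.2 CPM in the FaDu library.

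A few FaDu library cells held many HIST1H1C UMIs each. In 27 of 5979 thinned cells at least 5 of 5000 UMIs were HIST1H1C, a limit set after its values were seen, and they carried 16.0% of the gene's UMIs. The same limit found 8 cells in the TPF library and 4 in the combination library, with 4.82% and 1.61% of the UMIs. Cells picked for high counts of a gene hold an outsized share of it. For H1F0 the same limit found 362 FaDu library cells with 29.1% of its UMIs. In the 27 cells HIST1H1A, HIST1H1B and HIST1H1E gave 0 UMIs, against a mean of 0.170, 0.0771 and 0.0467 per cell in the other FaDu library cells, a level at which 27 cells cannot show that they lack the RNA. HIST1H1D was seen in 2 of the 27 cells, at a mean of 0.0741 UMIs against 0.0702. HIST1H2AC gave a mean of 3.00 UMIs per cell against 0.372 in the other FaDu library cells, HIST1H2BJ 2.07 against 0.142 and HIST1H2BC 1.41 against 0.105. HIST1H4C, a core H4 gene, gave 2.22 against 4.37. H1F0 gave 2.59 against 1.39. HIST2H2AC, at 0.0370 against 0.0422, and HIST1H2AJ, at 0.0741 against 0.0761, were near level, on 1 and 2 UMIs in the 27 cells. The median depth of the 27 cells was 24852 UMIs against 24768.

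The genes most like each member were found over 45 groups of cells (library, phase call and MALAT1 bin, at least 50 cells each), as Pearson's r of log2(CPM + 1) among 5684 genes. The groups share libraries and cell cycle stage, so r is a description. Of the genes named here, TMPO, CBX5 and PRIM1 are in the lists that set the phase calls, so the groups were partly formed from them. HIST1H1A was closest to TMPO, a nuclear lamina protein (r = 0.98), CBX5, a heterochromatin protein (0.98), and ESCO2, a cohesin acetyltransferase of S phase (0.96). HIST1H1B was closest to MYBL1, ORC6 and SMC2 (each 0.97), and HIST1H1D to TOPBP1, HIST1H1A and PRIM1 (0.96, 0.96 and 0.96). HIST1H1E was closest to KMT5A, the methyltransferase of histone H4 lysine 20, with UPF3B and HIST1H1D next (0.96, 0.95 and 0.95). HIST1H1C had no gene as close, with UPP1, HLA-E and SDF2 at 0.83, 0.83 and 0.82. H1F0 was closest to HIST3H2A (0.86), IER3 (0.85) and CCS (0.84), and H1FX to C1orf43 (0.86), SHMT2 and RNF5 (both 0.84).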

How the data were processed

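Single-cell 3′ libraries (10x kit version 3.1) of 3 groups were used, 1 library each. The deposited matrices hold raw UMI counts per gene and barcode, made by the authors with Cell Ranger 7.0 on hg38, per the submitters' processing notes (7.0.0 per the file headers). Annotation, intronic reads and strand setting were not found in the labels or headers used here. Each of 58735 gene IDs matched GENCODE 29, which gave gene models. Cells were barcodes with 1000 or more UMIs, 500 or more genes and a mitochondrial share of 20% or less. No doublet caller was run, doublets remain, and free RNA was not corrected for.

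UMIs were summed per library or group of cells and scaled to CPM (Python 3.11.15, numpy 2.4.6, scipy 1.17.1, pandas 2.3.3). Genes with a mean of at least 10 CPM were counted at 2-fold. Phases were called with scanpy 1.11.5 on cells thinned to 5000 UMIs, scored together over the 3 libraries. TMM factors came from edgeR 4.0.16 in R 4.3.3. Named were all members and the 3 genes most like each member. Up to 4 genes of each list with a mean of at least 20 CPM were named, by the largest absolute TPF over FaDu log2 ratio. The members, lists and alternatives were chosen with earlier results of these data known. The ratios and intervals were tested on simulated data. Alternatives were other filters on cells and genes, TMM factors, cells weighted equally, totals that leave out mitochondrial and ribosomal protein genes, thinning, other phase calls, each phase call or MALAT1 bin alone and a 1.5-fold limit.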

Additional observations from a re-analysis of the deposited data

Results flagged for a closer look

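H1F0 and HIST1H1C differed between phase calls in opposite directions in the libraries, with counting intervals on opposite sides of 0, and the difference between libraries was not tested. The G2/M over G1 log2 ratio of H1F0 was 0.52 (0.47 to 0.57) in the FaDu library, -0.29 (-0.34 to -0.23) in the TPF library and -0.25 (-0.32 to -0.18) in the combination library. The S over G1 log2 ratio of HIST1H1C was -0.46 (-0.60 to -0.33) in the FaDu library, -0.12 (-0.25 to 0.0059) in the TPF library and 0.16 (0.0084 to 0.31) in the combination library. G1 calls had a median of 0.174%, 2.07% and 1.82% MALAT1 in the same order. Within MALAT1 bins of at least 50 G1 cells, H1F0 in the FaDu library was higher in G2/M than in G1 calls in each bin. In the TPF library it was at 200.5 CPM in G2/M against 222 in G1 at 0.5% to 1% MALAT1, and 227 against 280.5 at 1% to 2%. Above 2% the order turned, with 239 (224.5 to 254) in G2/M against 216 (202 to 230) in G1. In the combination library it was at 133 against 155 at 0.2% to 0.5%, 148 against 157 at 0.5% to 1%, 162 against 177.5 at 1% to 2%, and 229 (210.2 to 248.8) against 176 (161 to 192) above 2%. HIST1H1C in the FaDu library was lower in S than in G1 under 0.05% MALAT1, at 40.4 against 66.1 CPM, and at 0.05% to 0.2%, at 27.0 against 56.0, and not at 0.2% to 0.5%, at 43.3 against 43.4, or at 0.5% to 1%, at 37.4 against 29.8. At 1% to 2% it was at 63.3 against 66.2 there, and above 2%, with 14 S cells, at 113 against 48.7. In the combination library it was higher in S at 0.2% to 0.5%, at 39.1 against 14.4, and at 0.5% to 1%, at 54.3 against 26.5. It was level with G1 at 1% to 2%, at 56.2 in both, and near level above 2%, at 47.7 against 48.3. In the TPF library it was at 48.9 in S against 47.0 in G1 at 0.5% to 1%, 52.1 against 67.1 at 1% to 2%, and 55.8 against 50.1 above 2%.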

How the results depend on the processing

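Of 164 counts recomputed under alternatives 146 stayed within 1.5 times their value. That tally takes in counts of 0 that stayed 0 and a change from 4 to 3, so it does not measure how firm the counts are. The counts of combination over TPF had little room to change, since 0.0123% of all genes passed 2-fold in each direction. Of the values of single genes 262 stayed inside the counting interval of the reported value, 330 moved outside it and 1 reversed. The count of members at least 2-fold lower than in the FaDu library was 0 in both resistant libraries. It became 1 (TPF) and 2 (combination) with TMM factors, beside 377 and 508 of 8098 genes. Under 0.05% MALAT1 it was 3 and 3, beside 96 and 374 of 7210 genes. In the combination library alone it was 2 with a 1.5-fold limit, and 1 in G2/M calls, beside 71 of 8001 genes. There it was also 2 at 0.05% to 0.2% MALAT1, beside 163 of 7671 genes. At 0.2% to 0.5% it was 1, beside 85 of 8042 genes, and at 0.5% to 1% also 1, beside 66 of 8303. The count higher, 4 in both, fell to 1 and 2 in G1 calls, where 5 members were measured, beside 1154 and 1239 of 8315 genes. For the combination library it fell to 2 under 0.05% MALAT1, beside 283 of 7210 genes. It fell to 3 above 2%, without HIST1H1A, beside 476 of 8895 genes. Under 0.05% MALAT1, HIST1H1B reversed, at -0.25, and in the combination over TPF comparison 1 member was lower, beside 111 of 7210 genes. The count by MALAT1 in the FaDu library, 1, became 3 with a 1.5-fold limit, 2 at 1% to 2% MALAT1, 0 in G1 calls and 3 in S calls, and in the TPF library 5 became 3 with all kept cells. All genes were not recounted with the 1.5-fold limit or for the alternatives to the counts by MALAT1. The causes were not tested.

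Leaving out cells under 0.05% MALAT1, chosen after seeing the data, kept all 6 counts between libraries. Of 8335 genes 516 (TPF) and 612 (combination) were then higher than in the FaDu library, and 21 and 51 lower. The comparison by MALAT1 within a phase call was not run where either bin held fewer than 50 cells. No paired analysis was possible because each group has 1 library. Depth limits HIST1H1E in the FaDu library, at 1467 UMIs, and the 75 cells of the TPF library under 0.05% MALAT1.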
